A study of Mus musculus with 8 samples.

Results

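The genes described here are the Zfp genes, mouse genes named "zinc-finger protein" with a number, that were expressed in gastrocnemius muscle. They were chosen by name (Zfp, a number and at most a letter suffix with a further digit) and by level, as rows whose raw counts summed over all 8 libraries reached 100. Of 25655 gene rows, 399 fitted the name and 163 of these reached the summed count. The other 236 did not, and 32 of them had no read. Because level chose the members, their levels are given as a description. The rule uses counts summed over both groups and no difference between them, but a gene high in 1 group alone can enter through that group, as counted below. The study profiled the gastrocnemius, a calf muscle, of wild-type male mice at day 4. The 5 control samples were given 10% glycerol. In the 3 septic samples, sepsis by several gut microbes had been produced with cecal slurry, which is suspended gut content. The labels give neither the ages of the mice nor whether each library came from a separate animal, so the p-values reflect the spread among these samples alone, which may be technical.

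Most Zfp genes encode proteins with C2H2 zinc fingers, small domains held together by a zinc ion that usually grip DNA and, in some proteins, RNA. Many carry a KRAB domain, which recruits the corepressor TRIM28 and, through it, the histone methyltransferase SETDB1 to silence genes and transposable elements. Others have taken on different work, such as the CCCH-type Zfp36 proteins that mark messenger RNAs for decay, or zinc-finger proteins that act on ribosomes.

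The promoters of the genes with the 2 largest increases (Zfp697, Zfp52) and the 2 largest decreases (Zfp467, Zfp651) show the kind of sequence from which these genes are transcribed. Each runs from 250 bases before to 50 bases after the RefSeq start site, on build GRCm38.p6, on the gene's own strand. Capitals mark matches, on either strand, to the GC box GGGCGG or to the NF-kappaB motif (GGGA and CC with any 4 bases between them), and overlapping matches run together. Zfp697 (chr3:98382231-98382530, plus strand) held none, Zfp52 is at chr17:21535289-21535588 on the plus strand, Zfp467 at chr6:48445041-48445340 on the minus strand and Zfp651 at chr9:121759783-121760082 on the plus strand.
Zfp697: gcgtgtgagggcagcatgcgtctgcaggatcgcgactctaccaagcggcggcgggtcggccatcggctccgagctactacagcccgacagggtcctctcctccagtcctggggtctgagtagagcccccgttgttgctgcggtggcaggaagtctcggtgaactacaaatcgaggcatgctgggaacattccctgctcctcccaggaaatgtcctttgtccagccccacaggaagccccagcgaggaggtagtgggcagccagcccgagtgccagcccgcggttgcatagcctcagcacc
Zfp52: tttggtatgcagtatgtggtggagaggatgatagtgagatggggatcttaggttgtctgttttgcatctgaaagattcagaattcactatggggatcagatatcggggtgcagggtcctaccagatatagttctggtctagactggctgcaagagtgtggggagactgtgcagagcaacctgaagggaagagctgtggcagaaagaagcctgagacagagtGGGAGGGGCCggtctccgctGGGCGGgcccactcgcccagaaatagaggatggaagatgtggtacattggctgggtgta
Zfp467: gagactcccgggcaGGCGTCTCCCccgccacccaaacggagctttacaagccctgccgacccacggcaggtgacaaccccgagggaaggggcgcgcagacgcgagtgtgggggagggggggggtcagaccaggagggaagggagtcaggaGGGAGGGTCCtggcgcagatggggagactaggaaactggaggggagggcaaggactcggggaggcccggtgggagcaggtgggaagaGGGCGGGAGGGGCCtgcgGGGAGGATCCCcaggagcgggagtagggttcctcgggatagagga
Zfp651: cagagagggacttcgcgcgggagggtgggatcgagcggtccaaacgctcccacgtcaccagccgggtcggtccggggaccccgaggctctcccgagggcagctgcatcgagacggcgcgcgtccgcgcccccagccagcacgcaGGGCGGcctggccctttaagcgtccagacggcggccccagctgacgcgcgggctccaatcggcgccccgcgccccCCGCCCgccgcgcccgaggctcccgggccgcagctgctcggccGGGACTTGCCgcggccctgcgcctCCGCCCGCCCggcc

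A promoter was matched by symbol for 129 members, 30 of them called higher and 19 called lower by the test described below. A GC box was found in 60.5% of the 129, against 35.9% of all 27025 promoters of the same length, in 63.3% of the 30 and in 63.2% of the 19. The TATA box TATAAA was found in 5.43% of the members' promoters and 14.2% of all promoters. The NF-kappaB motif was in 25.6% of the members' promoters, 30.0% of those of the genes called higher, 21.1% of those called lower and 20.5% of all. The STAT motif TTCNNNGAA was in 11.6% of the members' promoters and 8.47% of all. It was in 5 of the 30 promoters of genes called higher (16.7%) and in 0 of the 19 of genes called lower. The CREB motif TGACGTCA was in 3.1% of the members' promoters and 1.88% of all, and the FOXO motif TGTTTAC in 0.775% and 3.55%. The glucocorticoid receptor motif (AGAACA and TGTTCT with any 3 bases between them) was in 0 members' promoters and in 1 of all 27025. A match is a description of the letters, not a site of binding, and these shares were not tested.

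Library totals ran from 3086277 to 4016329 counts. Libraries of the same group always differed by more than sampling noise, with chi-square values per degree of freedom of 2.04 to 6.86 for pairs of controls and 11 to 26.3 for septic pairs. Levels below are counts scaled to a common library size (CPM), after correction by TMM, edgeR's trimmed-mean method, whose factors were 0.8875 to 0.9086 in controls and 1.131, 1.297 and 1.168 in septic libraries 1 to 3. The 7 muscle fibre markers were high in every library, at a summed 181000 to 211000 CPM in controls and 91400 to 118000 in sepsis, and all 7 were called lower. Summed neutrophil markers were at 0.3 to 1.08 CPM in controls and 60.4 to 136 in sepsis, with the precursor marker Mpo at 0 in both groups. Macrophage markers summed to 71.7 to 181 and 287 to 484 CPM, fibroblast markers to 839 to 1510 and 263 to 370, and satellite cell markers to 19.4 to 23.1 and 4.24 to 10.3. The part of this shift in cell makeup in the changes below was not tested, and in bulk tissue fewer cells of a type and less RNA per cell cannot be told apart.

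Expression of the Zfp members was mostly low and dominated by a pair of genes. Their summed counts ran from 102 to 28881 with a median of 248, and 17 of the 163 reached 1000. The median member had a mean of 8.63 CPM over all libraries. Zfp106 held 27.5% of all member reads and Zfp91 a further 10.1%. Together the members took 0.337% ± 0.0112 of all counts in controls (SD, n = 5) and 0.414% ± 0.00249 in sepsis (SD, n = 3). On the TMM scale, however, their summed level was 3754 ± 135 CPM in controls and 3463 ± 227 in sepsis. Without Zfp106 and Zfp91, the other 161 members summed to 2122 ± 31.8 CPM in controls and 2434 ± 144 in sepsis.

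All 163 members had enough reads to be tested beside the other genes, 9810 in all, with edgeR's quasi-likelihood test and a Benjamini-Hochberg adjusted p threshold of 0.05. At that threshold 38 members were higher in sepsis, 26 were lower and 99 were not called. The 64 called members are 39.3% of the members, against 50.4% of all genes tested. The share called higher was 23.3% of members and 25.2% of all genes, and the share called lower was 16% and 25.2%. The median log2 fold change, sepsis minus control, was 0.09 over the members (quartiles -0.39 and 0.62) and 0.01 over all genes (quartiles -0.6 and 0.56). Scaled to library totals alone, 78 members were called higher and 12 lower, with a median of 0.51, and the median of all genes moved to 0.43. Of all genes, 57.5% were then called, 43.3% higher and 14.2% lower. DESeq2 called 34 members higher and 21 lower, against 47.6% of all genes. With the replicate number as a block, 25 members were higher and 15 lower, against 37.0% of all genes. The share called was larger where more reads stood behind a gene. It was 30.6% of the 62 members with summed counts from 100 to under 200, 37.3% of the 67 from 200 to under 500 and 58.8% of the 34 from 500 up. Over all genes tested in the same count ranges the shares were 33.2%, 43.9% and 64.0%.

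**Figure D1:**
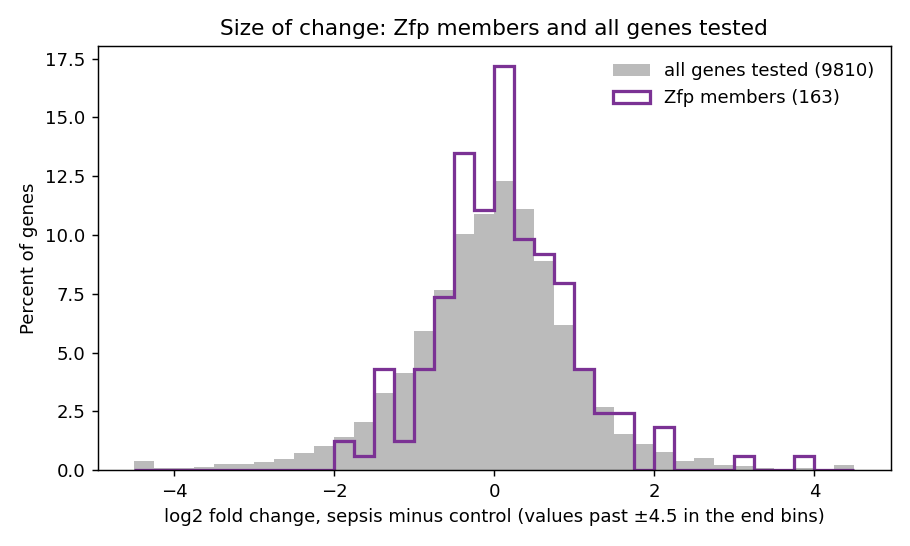
Distribution of log2 fold changes (sepsis minus control, x axis) as a percent of genes (y axis) for all 9810 genes tested (grey) and the 163 Zfp members (purple outline). The members' outline covers a narrower range than the grey histogram, apart from the separate bins of Zfp52 and Zfp697 above 3.

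Of all 163 members, 20 were called and at least 2-fold higher, and 12 were called and at least 2-fold lower. Of all 9810 genes tested, 1157 (11.8%) and 1397 (14.2%) were. The groups did not overlap, with every septic library above every control, in 33 members, and with every septic library below in 26. Over all genes tested the shares without overlap were 23.1% above and 24.3% below. The median coefficient of variation of a member was 19.3% among controls and 23.8% among septic libraries.

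The summed-count rule admits some genes through 1 group alone. At 12.5 reads per library, the mean that the rule asks for, 141 members reached the level in both groups, 15 in septic libraries only and 7 in controls only. Of the 141, 31 were called higher and 21 lower, which is 36.9%. Of the 15, 7 were called higher (Zfp697, Zfp52, Zfp87, Zfp865, Zfp60, Zfp790 and Zfp511), and of the 7, 5 were called lower (Zfp423, Zfp395, Zfp81, Zfp438 and Zfp280b). Just inside the rule were Zfp426 with 102 reads and Zfp438 and Zfp790 with 103 each. Just outside were Zfp444 with 96, Zfp994 with 93 and Zfp687 with 92. Of the 236 rows outside, 35 were tested, 0 were called higher and 7 lower (20%), with a median log2 fold change of -0.19. The filter on low reads, which decides what is tested, can also admit a gene through 1 group. The 7 had 51 to 67 reads in all controls and 18 to 24 in all septic libraries. These counts are therefore no measure of direction among the rows outside. Over all genes tested, whatever their count, 25.2% were called higher and 25.2% lower. By the same edgeR test with an unadjusted p under 0.05, 1 of these 35 were higher, and DESeq2 called 0 higher.

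**Figure D2:**
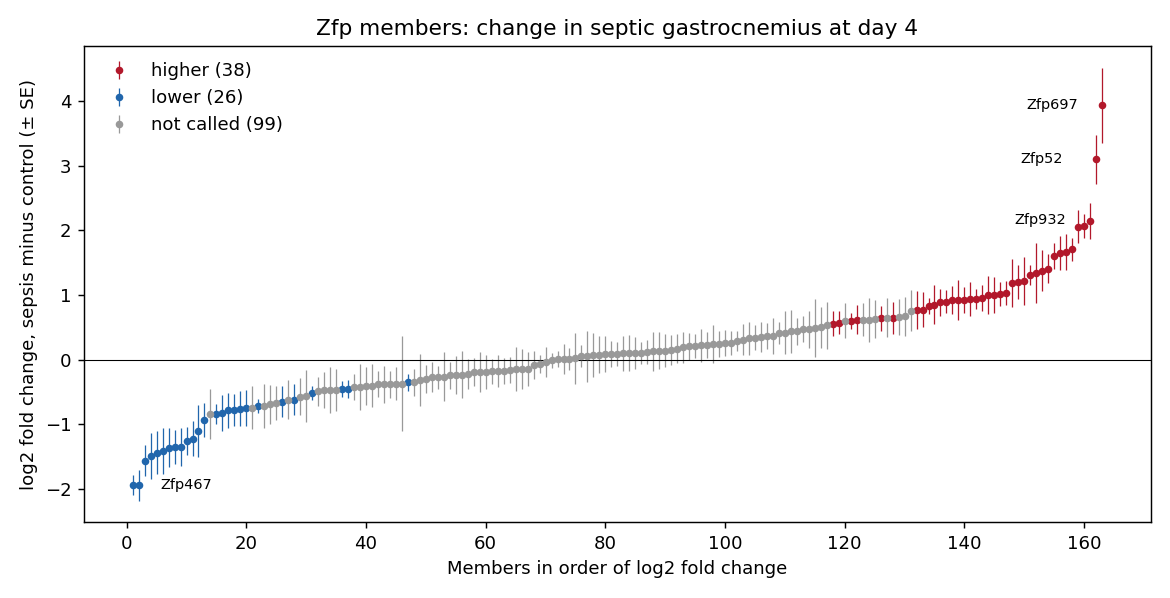
Log2 fold change, sepsis minus control (y axis, bars give the SE), of the 163 Zfp members in order of that value (x axis), coloured by call at an adjusted p of 0.05 as higher (38), lower (26) or not called (99). Zfp697 and Zfp52 stand above the rest at the right end, and Zfp467, beside Zfp651, is at the left end near -1.94.

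Zfp106 and Zfp91, the most abundant members, both fell. Zfp106 encodes an RNA-binding protein needed for the upkeep of motor neurons and muscle. It was at 1050, 1230, 1330, 1200 and 1250 CPM in controls 1 to 5 and 757, 660 and 785 in septic libraries 1 to 3. Each septic library was below each control. The log2 fold change was -0.72 (SE 0.11, edgeR adjusted p = 0.00013), and it was -0.31 with library totals alone. Zfp91 encodes a nuclear zinc-finger protein linked to NF-kappaB signalling. It was at 404, 405, 423, 418 and 456 CPM in controls 1 to 5 and 334, 274 and 276 in septic libraries 1 to 3, again without overlap (log2 fold change -0.51, SE 0.11, edgeR adjusted p = 0.00125). The Zfp91 call was lost with library totals alone, where the difference was -0.1, and with the replicate number as a block. Among the other 6 members of highest level, Zfp652, a transcriptional repressor, fell from 105 ± 9.45 to 77.1 ± 7.59 CPM (log2 fold change -0.45, n = 5 and 3, edgeR adjusted p = 0.00791). That difference was -0.03 and not called with library totals alone, and the Zfp652 call was also lost with the replicate number as a block. Zfp644 and Zfp292 were not called, at log2 fold changes of -0.01 (SE 0.12) and 0.05 (SE 0.17). Both were called higher with library totals alone, at 0.4 (adjusted p = 0.00601) and 0.47 (adjusted p = 0.034). Zfp651 is described with the decreases and Zfp638 and Zfp703 with the genes of known role.

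Members that bind RNA or act on ribosomes held 3 of the 12 largest increases, those of Zfp697, Zfp346 and Zfp593. The list of such genes was drawn up with earlier results of these data known, and Zfp697 reached the summed-count level in septic libraries only. The list has 12 members, all expressed, of which 6 were called higher, 1 lower (Zfp106) and 5 not, with a median log2 fold change of 0.72. Of all genes tested, 25.2% were called higher and 25.2% lower. Of the 12, 10 were called higher and 1 lower with library totals alone, with a median of 1.15. The members outside the list numbered 151, of which 32 were called higher and 25 lower, with a median of 0.07. Zfp697 has been described as an RNA-interacting protein of regenerating muscle and had the largest rise of any member. It was at 1.11, 0, 0.6, 0.72 and 0.318 CPM in controls 1 to 5 and 7.42, 4.18 and 15.7 in septic libraries 1 to 3. Every septic library was above every control, and control 2 had no read. The log2 fold change was 3.94 (SE 0.58, 15.4-fold, edgeR adjusted p = 0.000117), from 9 reads in all controls and 117 in all septic libraries. Leaving out single libraries gave 3.28 to 4.38, and at a minimum count of 20 the gene was not tested.

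Zfp346 encodes a protein that binds dsRNA. It was at 10.5, 7.19, 8.1, 8.28 and 6.35 CPM in controls 1 to 5 and 36.6, 34.1 and 32.3 in septic libraries 1 to 3. The septic values lay close together and far above all controls, at a log2 fold change of 2.07 (SE 0.18, 4.21-fold, edgeR adjusted p = 9.5e-07). Zfp593 encodes a nucleolar factor of large ribosomal subunit assembly. It was at 6.64, 6.57, 3.9, 3.96 and 5.08 CPM in controls 1 to 5 and 20.4, 11.1 and 18.4 in septic libraries 1 to 3, without overlap (log2 fold change 1.65, edgeR adjusted p = 0.000162). Zfp622 also serves the maturation of the large subunit and rose from 21.8 ± 1.86 to 40.8 ± 11 CPM (log2 fold change 0.90, n = 5 and 3, edgeR adjusted p = 0.000868). Zfp598 encodes the ubiquitin ligase that marks collided ribosomes. It rose from 12 ± 2.75 to 23.1 ± 4.04 CPM (log2 fold change 0.95, n = 5 and 3, edgeR adjusted p = 0.00171). Zfp207, which encodes a spindle and splicing factor, rose from 34.8 ± 2.75 to 61.8 ± 6.56 CPM (log2 fold change 0.83, n = 5 and 3, edgeR adjusted p = 0.000118). These 6 rose in every single-library exclusion.

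None of the 3 mRNA-decay members (Zfp36, Zfp36l1 and Zfp36l2) was called by edgeR with TMM scaling. Zfp36, which encodes tristetraprolin, was at 5.81, 7.5, 7.8, 17.6 and 7.94 CPM in controls 1 to 5 and 10.6, 5.86 and 8.64 in septic libraries 1 to 3, and the groups overlapped (log2 fold change -0.15, edgeR adjusted p = 0.74). Its sign turned under some settings, to 0.25 with library totals alone. Its relative Zfp36l1 was at 51.1 ± 10.5 and 54.3 ± 11 CPM (n = 5 and 3), with a log2 fold change of 0.09 (edgeR adjusted p = 0.699). Zfp36l2 was at 24.3, 15.9, 15.6, 13.3 and 15.2 CPM in controls 1 to 5 and 15.9, 28.9 and 33.2 in septic libraries 1 to 3. Control 1 stood among the septic values, and the log2 fold change of 0.62 missed the threshold (edgeR adjusted p = 0.0507). Without control 1 it was 0.79 (adjusted p = 0.0153), and without septic library 1 it was 0.86 (adjusted p = 0.00573). Zfp36l1 (0.51, adjusted p = 0.0386) and Zfp36l2 (1.04, adjusted p = 0.0042) were both called higher with library totals alone. The splicing factor genes Zfp830 and Zfp326 were not called either, at log2 fold changes of 0.44 (edgeR adjusted p = 0.0991) and 0.24 (0.334). Without septic library 2, Zfp830 was called at 0.67 (adjusted p = 0.0117). Both were called higher with library totals alone, Zfp830 at 0.85 (adjusted p = 0.00307) and Zfp326 at 0.65 (adjusted p = 0.0104).

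**Figure D3:**
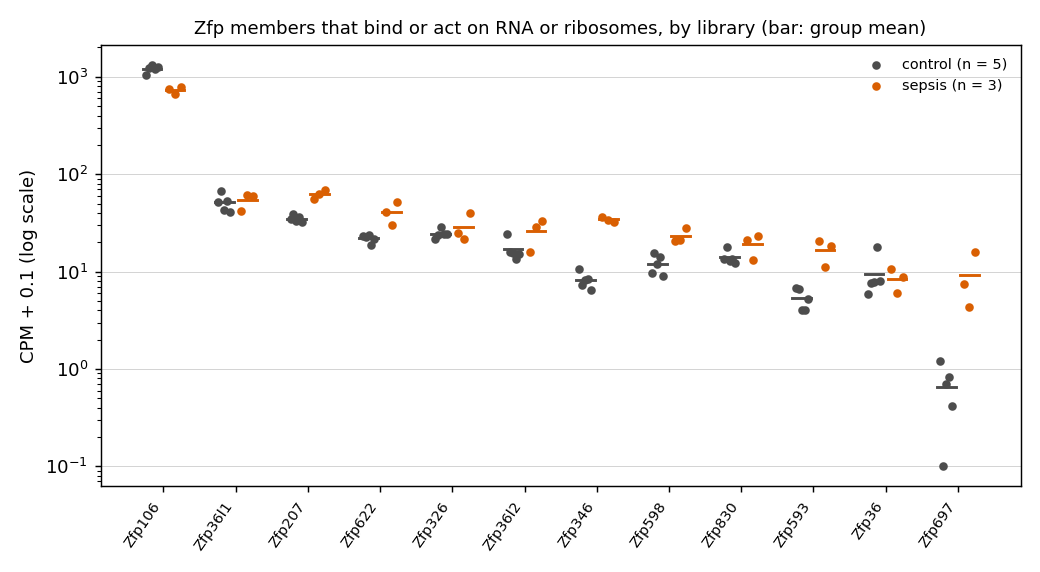
Level in each library (CPM + 0.1, y axis, log scale) of the 12 Zfp genes that bind RNA or act on ribosomes, with each library as a point (5 controls grey, 3 septic orange) and bars for group means. Septic points stand above all control points in Zfp697, Zfp346, Zfp593, Zfp598, Zfp622 and Zfp207, below them in Zfp106, and overlap them in the other 5.

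Outside that list, the largest rise was that of Zfp52, whose protein has a KRAB domain and 14 C2H2 fingers. It was at 1.66, 4.38, 3.6, 0.72 and 6.03 CPM in controls 1 to 5 and 27.5, 21.3 and 36.8 in septic libraries 1 to 3. The lowest septic library was above the highest control, with a log2 fold change of 3.10 (SE 0.38, 8.59-fold, edgeR adjusted p = 4.41e-05). Its exons overlap those of 9330136K24Rik on the opposite strand in the GENCODE annotation, and the strand setting of the counting was not given in the sources used here. Zfp932 rose from 5.12 ± 1.48 to 23.1 ± 9.39 CPM (log2 fold change 2.15, n = 5 and 3, edgeR adjusted p = 3.63e-05). Of the 31-base words in the last 300 bases of its transcript, 86.7% also occur in Gm15446, which was itself 3.8-fold higher, so reads of this pair may be split between them. Zfp110 encodes a partner of the p75 neurotrophin receptor and rose from 6.01 ± 1.67 to 25.4 ± 7.23 CPM (log2 fold change 2.06, n = 5 and 3, edgeR adjusted p = 1.81e-05). Zfp771 was at 16, 13.4, 17.4, 16.9 and 18.1 CPM in controls 1 to 5 and 71.3, 41.4 and 48.2 in septic libraries 1 to 3, without overlap (log2 fold change 1.71, edgeR adjusted p = 6.68e-06). Zfp318, whose protein controls the choice between IgM and IgD transcripts in B cells, rose from 29.9 ± 6.21 to 74.2 ± 8.4 CPM (log2 fold change 1.31, n = 5 and 3, edgeR adjusted p = 2.27e-05). Markers of T and B cells summed to 0 to 1.2 CPM in controls and 0.227 to 0.837 in sepsis. The 12 largest increases were chosen among called genes without overlap between the groups. The remaining members of these were Zfp87 (log2 fold change 1.67), Zfp839 (1.61), Zfp715 (1.41) and Zfp865 (1.38).

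The largest decreases, of Zfp467 and Zfp651, were smaller than the 5 largest increases. Zfp467 encodes a regulator of the choice between adipocyte and osteoblast fates. It was at 12.4, 22.5, 15.9, 15.1 and 17.8 CPM in controls 1 to 5 and 4.24, 3.98 and 4.78 in septic libraries 1 to 3. All 3 septic libraries were below the lowest control, at a log2 fold change of -1.94 (SE 0.24, 3.84-fold lower, edgeR adjusted p = 2.31e-05). Zfp651, the mouse counterpart of human ZBTB47, was among the most abundant members. It was at 91.5, 107, 104, 113 and 99.7 CPM in controls 1 to 5 and 33.6, 25.7 and 21.4 in septic libraries 1 to 3. The groups stood far apart, with a log2 fold change of -1.94 (SE 0.16, 3.83-fold lower, edgeR adjusted p = 6.62e-07).

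Zfp423 encodes a factor that commits cells to the preadipocyte lineage. It was at 7.19, 7.19, 8.1, 11.2 and 5.4 CPM in controls 1 to 5 and 2.38, 4.18 and 1.82 in septic libraries 1 to 3, without overlap (log2 fold change -1.44, edgeR adjusted p = 0.00272). Fibroblast markers were lower in the same libraries, as given above, and their part in the Zfp423 result was not tested. Zfp521, which counters Zfp423 in fat precursors, was not called, at 4.24 ± 0.561 and 3.6 ± 0.888 CPM (n = 5 and 3, edgeR adjusted p = 0.505). Zfp462, a chromatin regulator of embryonic development with 33 fingers, the highest number among members, fell from 22.5 ± 5.31 to 8.72 ± 4.27 CPM (log2 fold change -1.35, n = 5 and 3, edgeR adjusted p = 0.00183). The 12 largest decreases were chosen among called genes without overlap between the groups. The others of these were Zfp955b (-1.56), Zfp395 (-1.49), Zfp81 (-1.41), Zfp938 (-1.36), Zfp30 (-1.35), Zfp532 (-1.26), Zfp825 (-1.22) and Zfp612 (-0.93). Zfp438 (-1.1) was also called lower, but its groups overlapped, so that choice left it out. The Zfp612 call was lost with library totals alone, at -0.51 (adjusted p = 0.118), and with the replicate number as a block. Zfp955b shares 78.5% of its 3′ words with Zfp955a, which was at -0.72 and not called (edgeR adjusted p = 0.0907), and Zfp825 shares 25.2% with Gm46430.

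**Figure D4:**
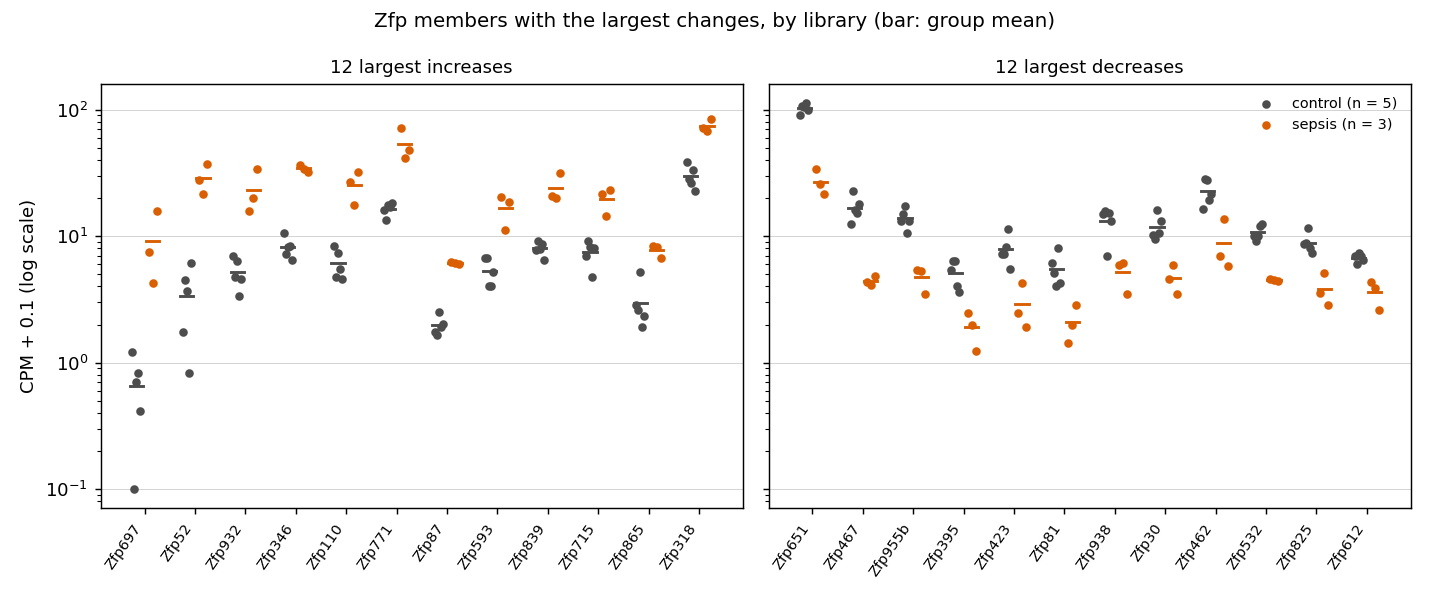
Level in each library (CPM + 0.1, y axis, log scale) of the 12 members with the largest increases (left) and the 12 with the largest decreases (right) among called genes without overlap. Points are libraries (5 controls grey, 3 septic orange) and bars are group means, and in each gene all septic points lie on 1 side of all controls, as that choice requires.

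Of 27 Zfp genes listed for a known role in transcription or development, 23 were expressed, and 4 were called higher, 5 lower and 14 not (39.1% called, against 50.4% of all genes tested), with a median log2 fold change of 0.05. The counts were 12 and 2 with library totals alone, and without septic library 1 the counts were 2 and 5. The genes called higher were Zfp110, Zfp143, Zfp638 and Zfp703. Zfp143 encodes an activator of small nuclear RNA genes and of many protein-coding promoters. It rose from 4.9 ± 1.41 to 9.98 ± 3.04 CPM (log2 fold change 1.0, n = 5 and 3, edgeR adjusted p = 0.0101), with overlapping groups. Zfp638, a nuclear protein that helps the HUSH complex silence unintegrated retroviral DNA, was at 60, 51.3, 62.7, 51.9 and 57.2 CPM in controls 1 to 5 and 90.3, 55 and 107 in septic libraries 1 to 3. Septic library 2 lay within the control range (log2 fold change 0.57, edgeR adjusted p = 0.0181), and the call was lost without septic library 1 (0.51, adjusted p = 0.0654) or 3 (0.35, adjusted p = 0.0974). The Zfp638 call was also lost with the replicate number as a block. Zfp703, a transcriptional corepressor, was at 39, 35.6, 40.2, 41.1 and 42.2 CPM in controls 1 to 5 and 148, 89.1 and 35 in septic libraries 1 to 3. Septic library 3 lay below every control while the other 2 septic libraries lay far above (log2 fold change 1.19, SE 0.37, edgeR adjusted p = 0.0248). The Zfp703 call was lost without septic library 1 (0.64, adjusted p = 0.0846), septic library 2 (1.20, adjusted p = 0.074) or control 1 (1.18, adjusted p = 0.0505). It was also lost with no filter on low counts and with the replicate number as a block.

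The known-role genes called lower were Zfp91, Zfp423, Zfp462, Zfp24 and Zfp131. Zfp24, which encodes a SCAN-domain factor needed for myelination by oligodendrocytes, was at 45.3, 51.3, 49.8, 54.4 and 43.5 CPM in controls 1 to 5 and 23.8, 33.7 and 24.1 in septic libraries 1 to 3, without overlap (log2 fold change -0.84, edgeR adjusted p = 0.000533). With library totals alone Zfp24 was at -0.41 (adjusted p = 0.0551). Zfp131 fell from 37.8 ± 2.49 to 29.6 ± 1.79 CPM (log2 fold change -0.35, n = 5 and 3, edgeR adjusted p = 0.0353). That call was lost without any 1 of control 3, 4 or 5 or septic library 1 or 2 (adjusted p = 0.0629 to 0.0798), and the sign turned with library totals alone, to 0.06. The Zfp131 call was also lost with DESeq2, with no filter on low counts and with the replicate number as a block. Among the 14 not called, Zfp809, which silences murine leukaemia virus, was at 5.03 ± 2.17 and 4.16 ± 1.9 CPM (n = 5 and 3, edgeR adjusted p = 0.547). Zfp568, a KRAB repressor of an Igf2 transcript, was at 10.1 ± 0.903 and 11 ± 2 CPM (edgeR adjusted p = 0.624 from the same 5 and 3 libraries). Zfp451, a SUMO ligase, was at 19.3 ± 3.47 and 20.7 ± 1.01 CPM (edgeR adjusted p = 0.642).

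Protein features were read from translated GENCODE transcripts by letter patterns. A strict KRAB pattern, which misses some known KRAB genes such as Zfp568, Zfp30 and Zfp445, was found in 49 members. Of these, 9 were called higher and 6 lower (30.6%), with a median log2 fold change of -0.27, against 50.4% called of all genes tested, whatever their count. The counts became 16 and 4 with library totals alone, with a median of 0.16. Without septic library 1 the counts were 6 and 8, and without septic library 2 they were 9 and 10. Of the 114 members without the pattern, 29 were called higher and 20 lower (43.0%), with a median of 0.13, and with library totals alone 62 and 8. The median member had 9 C2H2 fingers. The 46 members with up to 5 fingers held 16 called higher (34.8%) and 8 lower (17.4%), with a median of 0.22. The 52 with 6 to 10 held 8 (15.4%) and 9 (17.3%), with a median of -0.02. The 65 with more held 14 (21.5%) and 9 (13.8%), with a median of 0.08. Of all genes tested, 25.2% were called higher and 25.2% lower. The share called also grew with read count. Over all genes tested it was 33.2% at summed counts from 100 to under 200 and 43.9% from 200 to under 500. Neither the members with and without the KRAB pattern nor the finger groups were compared in read count. On library totals alone the numbers called higher and lower in the finger groups, in the order above, were 28 and 2, 24 and 5, and 26 and 5. Without control 5 those with up to 5 fingers held 15 and 5, and without septic library 3 those with more than 10 held 9 and 6. No C2H2 match was found in 7 members, namely Zfp330, Zfp36, Zfp36l1, Zfp36l2, Zfp503, Zfp703 and Zfp839. These differences between feature groups were not tested.

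Many Zfp genes sit in clusters on the chromosomes. Among the protein-coding genes of the reference, 36 members stood in 14 uninterrupted runs of neighbouring member genes, where genes of other kinds between them were ignored. In 3 runs a member called higher stood beside a member called lower, as with Zfp110 (2.06) and Zfp329 (-0.62), Zfp790 (1.34) and Zfp30 (-1.35), and Zfp35 (1.0) and Zfp24 (-0.84). Some of these calls were not stable. The Zfp329 call was lost without control 2, 3 or 4 or septic library 1 or 3 (adjusted p = 0.0701 to 0.106), with DESeq2 (adjusted p = 0.0993) and with library totals alone (-0.2, adjusted p = 0.504). The Zfp790 call was lost without control 1 or 3 or septic library 1 or 3 (adjusted p = 0.0613 to 0.11), and the Zfp24 call with library totals alone. With the replicate number as a block, edgeR lost the calls of Zfp329 (adjusted p = 0.102), Zfp790 (adjusted p = 0.0852) and Zfp35 (adjusted p = 0.0869). With no filter on low counts it also lost that of Zfp329 (adjusted p = 0.111). Only 1 run, Zfp524 and Zfp865, had all members called higher, and 1, Zfp955b and Zfp81, all called lower. Of these genes, Zfp790 and Zfp865 reached the summed-count level in septic libraries only, and Zfp81 in controls only. Of all genes tested, 25.2% were called higher and 25.2% lower, and runs of other genes were not counted. The longest run held Zfp398 (0.66), Zfp282 (0.15), Zfp212 (0.01), Zfp956 (-0.14) and Zfp777 (-0.08) on chromosome 6, with 0 called. The run on chromosome 9 held Zfp560 (0.10), Zfp26 (0.65), Zfp426 (-0.84) and Zfp266 (-0.27), also with 0 called. By edgeR with an unadjusted p under 0.05, 3 of these 9 genes passed, and DESeq2 called 0 at an adjusted p under 0.05. On library totals alone edgeR called Zfp398 (1.07, adjusted p = 0.00555), Zfp26 (1.05, adjusted p = 0.00829) and Zfp282 (0.56, adjusted p = 0.0443) higher. Single libraries also decided some of these values. Without septic library 2, Zfp426 was called lower (-1.24, adjusted p = 0.0319) and Zfp398 higher (0.80, adjusted p = 0.0497), and without control 1, Zfp26 was called higher (0.81, adjusted p = 0.0475).

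The machinery through which KRAB members are known to act was measured with a list of 38 corepressor genes, of which 35 were tested. Of these, 10 were called higher and 3 lower (37.1%, against 50.4% of all genes tested), with a median log2 fold change of 0.14. With library totals alone the counts were 26 and 1. Daxx, a histone H3.3 chaperone, was at 14.7, 12.5, 12.6, 10.8 and 14.6 CPM in controls 1 to 5 and 48.2, 25.7 and 66.6 in septic libraries 1 to 3, without overlap (log2 fold change 1.84, edgeR adjusted p = 8.57e-05). Mphosph8, a HUSH subunit, rose from 52.6 ± 5.72 to 105 ± 9.46 CPM (log2 fold change 0.99, n = 5 and 3, edgeR adjusted p = 2.32e-05). The HUSH subunit genes Tasor (-0.31, edgeR adjusted p = 0.131) and Pphln1 (0.09, edgeR adjusted p = 0.777) were not called. Trim28 itself was at 21.3, 22.8, 26.7, 27 and 29.5 CPM in controls 1 to 5 and 32.3, 28.2 and 48 in septic libraries 1 to 3, and its groups overlapped (log2 fold change 0.51, edgeR adjusted p = 0.0353). Setdb1 was at 3.32 ± 0.7 and 5.74 ± 1.4 CPM (log2 fold change 0.78, n = 5 and 3, edgeR adjusted p = 0.0388). The 3 called lower were Hdac2 (-0.97), Mbd3 (-0.75) and Chd3 (-0.62), the last 2 not called with library totals alone. All 3 can belong to the NuRD deacetylase complex, of which 4 other listed genes were called higher: Mta2 (0.97), Rbbp4 (0.68), Mta1 (0.51) and Chd4 (0.47). Its other listed genes were not called with TMM scaling, at 0.05 (Hdac1), 0.06 (Rbbp7), 0.15 (Gatad2a), 0.28 (Gatad2b) and 0.28 (Mbd2), or not tested (Mta3).

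Other zinc-finger families, matched by symbol alone, gave the following counts beside the members' 38 and 26 of 163 and the 25.2% called higher and 25.2% lower of all genes tested. Unlike the members, these families had no summed-count limit, and Zscan20 was tested with 76 reads. The filter on low reads can also admit a gene through 1 group. Zkscan6 (20 reads in controls, 81 in sepsis) and Zscan26 (40 and 61) were called higher. Zbtb12 (103 reads in controls, 29 in sepsis) was called lower. Of 12 tested Zkscan and Zscan genes, 6 were called higher and 0 lower, with a median log2 fold change of 0.70. DESeq2 called 0 lower and edgeR with an unadjusted p under 0.05 gave 0 lower. Of 28 Zbtb genes, 8 were called higher and 3 lower (median 0.14), where the symbol match includes Zbtb8os, a gene named only for its position. The Zbtb counts were 14 and 2 with library totals alone. Of 18 Klf and Sp genes, 6 were called higher and 1 lower (median 0.28), where the match includes the nuclear-body genes Sp100 and Sp140. The Klf and Sp counts were 11 and 1 with library totals alone, with DESeq2 6 and 2, and without control 1 they were 5 and 3.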

How the data were processed

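RNA of 8 gastrocnemius samples was made into libraries with a QuantSeq 3′ kit, which reads near the end of polyadenylated transcripts, per the labels' protocols. The table deposited by the authors holds raw counts for each gene, 1 column per library, on genome build GRCm39 per the submitters' processing notes. Aligner, counting tool, strand setting and annotation: not given in the sources used here.

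Counts were fitted once over all genes with edgeR 4.0.16 in R 4.3.3. The expression filter (minimum count 10, minimum total 15) kept 9810 genes. After TMM scaling, a robust quasi-likelihood test compared sepsis (n = 3) with control (n = 5), with no covariate and Benjamini-Hochberg adjustment at 0.05. The SE is the size of the log2 fold change over the root of its F value. DESeq2 1.42.0, other scalings and filters, the replicate block and single-library exclusions were alternatives. The scripts were first tested on simulated data.

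The members and gene lists were chosen with earlier results of these data known. Named are the 12 largest called increases and decreases without overlap, the 8 members of highest level, the RNA and known-role lists, the genes nearest the summed-count limit, neighbour runs of 4 or more, and 3 corepressors each way, 1 of which is not reported here by name. Trim28, Setdb1, Mta1, Mta2, Rbbp4, Chd4, the genes named in shorter runs, as reaching the summed count in 1 group alone or for a missed letter pattern, Gm15446, Zfp955a, Zfp960 and Zfp97 were named after their values were seen. So were Hdac1, Rbbp7, Gatad2a, Gatad2b, Mbd2, Mta3, Tasor and Pphln1. Reference protein sequences were not used here, so protein features came from the longest reading frame of GENCODE M21 transcripts. Shared 3′ ends were found in the same transcripts, as words of 31 bases over the last 300. Promoters are RefSeq's on GRCm38.p6, matched by symbol.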

Additional observations from a re-analysis of the deposited data

Results flagged for a closer look

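In 5 of 70 named genes 1 control library stood apart from the other 4 by Dixon's criterion, and chance alone marks about 1 in 20 such groups. Zfp36 was at 17.6 CPM in control 4 and 5.81 to 7.94 in the others. Zfp36l2 was at 24.3 CPM in control 1 and 13.3 to 15.9 in the others. Zfp830 was at 17.8 CPM in control 2 and 12.1 to 13.5 in the others. Zfp219 was at 9.38 CPM in the same library and 6.3 to 6.99 in the others, and Zfp560 at 3.44 CPM there and 6.36 to 7.3 in the others. None of these 5 genes was called by edgeR with TMM scaling over all 8 libraries. Zfp36l2 was called higher without control 1 (0.79, adjusted p = 0.0153) and without septic library 1 (0.86, adjusted p = 0.00573), and Zfp830 without septic library 2 (0.67, adjusted p = 0.0117). With no filter on low counts Zfp36l2 was called too (0.65, adjusted p = 0.0246). With library totals alone Zfp36l2 (1.04, adjusted p = 0.0042), Zfp830 (0.85, adjusted p = 0.00307) and Zfp219 (0.62, adjusted p = 0.0444) were called higher.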

How the results depend on the processing

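The 64 member calls kept their sign under every alternative that tested them, apart from Zfp131 with library totals alone, and 23 of 38 higher and 10 of 26 lower calls passed the threshold in all 14 settings of the whole-table fit, where a member not tested counted as not passing. With DESeq2, 34 were higher and 21 lower, and 55 of the 64 remained. Scaling to library totals alone gave 78 higher and 12 lower members, a median log2 fold change of 0.51, and 26 higher and 1 lower corepressor genes. The median was 0.11 with a minimum count of 20, 0.12 with no filter, 0.05 with upper-quartile factors, 0.06 for a summed count of at least 50 and 0.17 for at least 200, where 16 members were lower. Leaving out single libraries gave 28 to 38 higher, 20 to 28 lower and a median of 0.05 to 0.11.

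The replicate number as a block gave 25 higher and 15 lower members and a median of 0.04. Same-numbered samples did not deviate together (correlations -0.131, 0.05 and -0.016). With only 3 septic libraries, these values cannot decide whether the numbers pair the samples. The labels do not say what the numbers mean, and controls 4 and 5 had no septic sample of the same number.

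The sign changes in this paragraph were looked for among the 70 named genes only, and those of the other members are not listed. Among the named genes, values that changed sign belonged to genes not called with TMM scaling, except Zfp131. With library totals alone these were Zfp131 0.06, Zfp217 0.24, Zfp266 0.16, Zfp281 0.22, Zfp36 0.25, Zfp521 0.17, Zfp644 0.4, Zfp777 0.33, Zfp809 0.09 and Zfp956 0.28. With a minimum count of 20, Zfp148 was -0.02 and Zfp212 -0.02, and with upper-quartile factors -0.04 and -0.03. Zfp644 was 0.03 with no filter. Under the block Zfp292 was -0.06, Zfp36 0.23, Zfp644 0.04 and Zfp777 0.05. Single-library exclusions ranged over 0 in Zfp148 (-0.04 to 0.05), Zfp212 (-0.1 to 0.09), Zfp219 (-0.09 to 0.36), Zfp292 (-0.14 to 0.26), Zfp326 (-0.07 to 0.42), Zfp36 (-0.35 to 0.2), Zfp407 (-0.05 to 0.19), Zfp560 (-0.06 to 0.21), Zfp568 (-0.03 to 0.22), Zfp644 (-0.06 to 0.1), Zfp777 (-0.18 to 0.04) and Zfp809 (-0.62 to 0.03). The cause was not tested, other than that the minimum count of 20 tested 132 of the 163 members. At this depth 62 members rest on fewer than 200 reads.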

Other observations

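Zfp960 and Zfp97 are near copies, with 95.6% of the 31-base words in the last 300 bases of Zfp960 also found in Zfp97, and this pair was singled out after its values were seen. Zfp960 had 8, 16, 21, 7 and 16 reads in controls 1 to 5 and 21, 0 and 20 in septic libraries 1 to 3. Zfp97, which is outside the summed-count rule, had 21, 0, 0, 3 and 0 reads in controls and 11, 28 and 13 in sepsis. Where Zfp960 had no read, in septic library 2, Zfp97 had its highest count. Summed, the pair had 29, 16, 21, 10 and 16 reads in controls and 32, 28 and 33 in sepsis. Zfp960 also had the widest relative spread of any member in sepsis, with a coefficient of variation of 87.9%, followed by Zfp710 (75.5%), Zfp697 (65.2%) and Zfp703 (62.1%). A further gene with shared ends is Zfp706, with 73.3% of its words also in Gm42860, which had no read in any library. Exons of 47 of the 163 members overlap those of another gene in the reference.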
